A study of Mus musculus with 2 samples.

Results

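Chromatin modifiers and the DNA methylation maintenance machinery were examined in mouse liver before and during regrowth. Members were all probe sets whose single gene symbol in the array annotation began with Smarc, Setd, Suv39h or Suz12, was Eed, or paired a number with Hdac, Kdm, Kmt, Sirt, Chd, Cbx, Ezh, Tet, Dnmt, Uhrf or Chaf (1 gene is left out by the rule). These are 246 probe sets for 100 genes, out of 34945 probe sets with 1 symbol for 18193 genes. Whole liver was taken from BALB/c nude mice, which lack a thymus and so most T cells. The control was liver of day 0, and the other array held liver of day 3, called active regeneration in the labels, after a partial hepatectomy of 70%. Each day had 1 array, made from total RNA, and the labels do not say whether it held RNA of 1 mouse or of a pool. No spread between animals can be had from 1 array a day, so no p-value was computed, and effects of day, of surgery and of the individual mouse or pool cannot be told apart. No sham-operated liver was analysed here. The number of arrays limits the precision.

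In dividing cells each round of DNA replication leaves CpG sites methylated on the old strand alone and spreads the old histones over both daughter molecules. UHRF1 reads hemimethylated CpG and brings in DNMT1, which restores the mark, while the chaperone CAF-1 places new histones behind the fork. Polycomb repressive complex 2 (PRC2) then methylates histone H3 at lysine 27, and HP1 proteins bind methylated lysine 9. Histone deacetylases, sirtuins, lysine demethylases and ATP-dependent remodellers act in resting and in dividing cells alike. The adult liver is mostly in a resting state, and after partial hepatectomy hepatocytes re-enter the cell cycle.

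The share of members past 2-fold was close to that of all genes, and the members with the largest differences included genes of DNA methylation maintenance, PRC2 and the sirtuins. Signals (MAS5 intensity, in array units) below a common floor of 68.3 were set to that floor, which was the higher of the array medians. A gene was represented by its brightest probe set, and where 1 array lay under the floor the fold is a lower bound, marked by the words at least. Of the 100 member genes, 95 could be analysed: 88 had both signals over the floor, 4 had the day 3 signal alone and 3 the day 0 signal alone. Cbx3, Dnmt3l, Hdac9, Kdm4d and Smarca1 were under the floor on both arrays with the probe sets that carry their symbol alone. At day 3, 11 members (11.6%) had at least 2-fold higher signal, against 12.9% of all 12634 analysed genes. At least 2-fold lower signal was seen for 5 members (5.26%), against 5.62% of all genes. The median log2 ratio, day 3 over day 0, was 0.07 for the members and 0.08 for all genes, with the middle 50% of members between -0.25 and 0.55 and that of all genes between -0.32 and 0.56. Under 1.5-fold either way were 63 members (66.3%), against 61.8% of all genes. Of the 180 analysed member probe sets, 19 (10.6%) were at least 2-fold higher, beside 11.2% of all analysed probe sets, and 5 (2.78%) at least 2-fold lower, beside 6.07%.

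**Figure D1:**
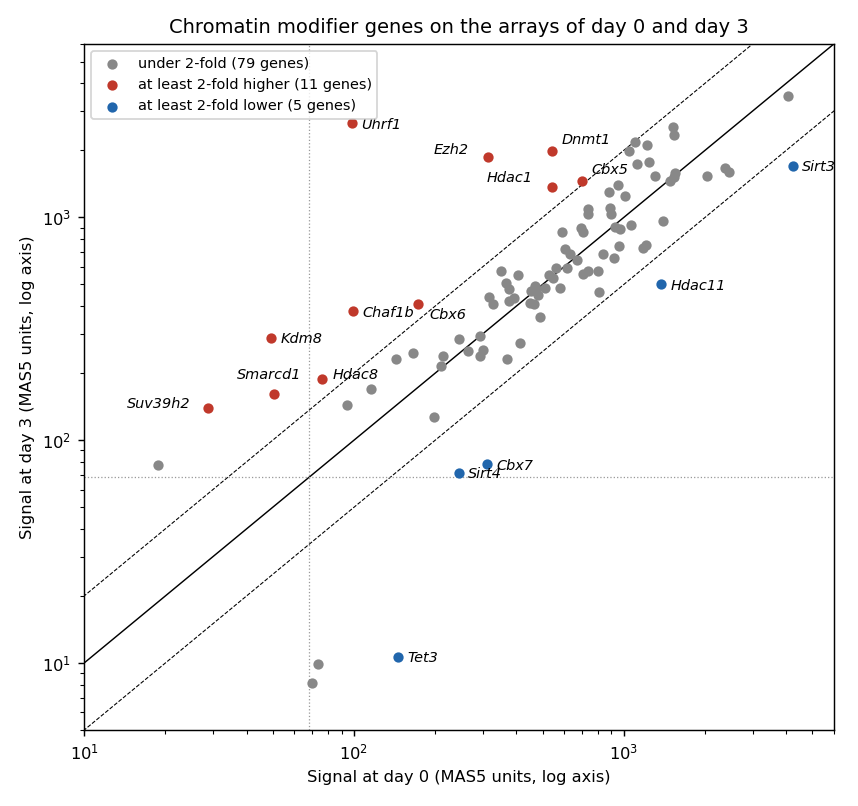
Signal at day 0 against signal at day 3, in MAS5 units on log axes, for the 95 analysed member genes, 1 point per gene. The solid line marks equal signal, the dashed lines 2-fold, and the dotted lines the floor of 68.3. Points show signals before the floor was set, while 2-fold was judged after it. Uhrf1 and Ezh2 lie farthest above the diagonal, and Cbx7, Sirt4, Hdac11, Sirt3 and Tet3 lie below the lower dashed line. Tet1 and Chd5 lie below that line as well, but were under the floor at day 3 and under 2-fold after it was set.

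Promoter windows of the members that stand out are shown first, because 4 of the higher members hold an E2F word in them. RefSeq windows on GRCm38.p6, from 250 bases before to 50 after a transcript start, were found for 82 of the 100 members. They were searched on both strands for E2F words (TTTCCCGC or TTTCGCGC or TTTGCCGC or TTTGGCGC), for words of the cell cycle homology region CHR (TTTGAA or TTCGAA) and for CCAAT. E2F factors control genes of S phase, CHR elements are known from mitotic genes, and CCAAT is bound by NF-Y. Each window is printed 5′ to 3′ on the strand of the gene, with these words in capitals. The E2F words overlap no other word in them, while a pair of CCAAT words on opposite strands overlaps in Dnmt1.
Uhrf1, chr17:56304063-56304362, + strand: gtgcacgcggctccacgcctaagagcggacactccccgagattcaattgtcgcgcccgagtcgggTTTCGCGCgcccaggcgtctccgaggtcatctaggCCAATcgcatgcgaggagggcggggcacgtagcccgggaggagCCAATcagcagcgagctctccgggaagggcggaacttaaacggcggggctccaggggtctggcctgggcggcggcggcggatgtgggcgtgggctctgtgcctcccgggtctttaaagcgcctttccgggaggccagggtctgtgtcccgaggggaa
Dnmt1, chr9:20952574-20952873, - strand: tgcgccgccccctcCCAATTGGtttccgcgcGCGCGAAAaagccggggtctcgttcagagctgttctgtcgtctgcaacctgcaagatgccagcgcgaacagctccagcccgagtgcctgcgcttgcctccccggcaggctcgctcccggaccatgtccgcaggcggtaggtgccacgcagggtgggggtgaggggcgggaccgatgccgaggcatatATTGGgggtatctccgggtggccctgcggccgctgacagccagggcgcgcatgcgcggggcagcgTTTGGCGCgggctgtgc
Ezh2, chr6:47594981-47595280, - strand: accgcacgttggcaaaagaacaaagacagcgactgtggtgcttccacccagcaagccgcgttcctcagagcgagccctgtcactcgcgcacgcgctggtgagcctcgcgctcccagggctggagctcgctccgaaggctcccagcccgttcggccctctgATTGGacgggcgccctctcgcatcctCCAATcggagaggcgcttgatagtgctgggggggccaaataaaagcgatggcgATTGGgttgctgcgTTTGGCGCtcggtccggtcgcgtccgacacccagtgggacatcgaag
Smarcd1, chr15:99702037-99702336, + strand: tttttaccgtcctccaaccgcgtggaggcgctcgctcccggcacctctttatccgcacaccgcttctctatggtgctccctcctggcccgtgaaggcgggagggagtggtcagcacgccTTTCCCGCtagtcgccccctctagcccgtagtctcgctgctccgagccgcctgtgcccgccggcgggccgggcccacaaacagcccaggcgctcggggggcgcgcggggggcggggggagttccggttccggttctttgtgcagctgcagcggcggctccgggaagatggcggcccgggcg
Sirt4, chr5:115484248-115484547, - strand: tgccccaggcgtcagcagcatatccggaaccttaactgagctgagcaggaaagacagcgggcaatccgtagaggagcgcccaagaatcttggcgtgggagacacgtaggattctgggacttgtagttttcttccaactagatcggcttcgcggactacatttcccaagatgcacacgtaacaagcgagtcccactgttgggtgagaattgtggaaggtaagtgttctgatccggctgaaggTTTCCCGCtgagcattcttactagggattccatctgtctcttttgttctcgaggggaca

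Of a gene with several windows, the window with most E2F words was printed. Uhrf1 holds TTTCGCGC starting 185 bases before the transcript start, and 2 CCAAT words nearer to it. This is 1 of 2 Uhrf1 windows, and the other holds no E2F word. In Dnmt1, the word TTTCGCGC stands on the opposite strand 219 bases before the start of the printed window, and TTTGGCGC stands on the gene's strand from base 34 after it. This is 1 of 3 Dnmt1 windows, and the other 2 hold no E2F word. Those 2 windows lie upstream of the printed window on the gene's strand, so both E2F words stand downstream of their starts. Which start was in use was not tested. Ezh2 holds TTTGGCGC from base 4 after the start and 3 CCAAT words, and Smarcd1 holds TTTCCCGC 131 bases before the start. Sirt4, a gene with lower signal at day 3, holds TTTCCCGC 9 bases before its start, so the word is not limited to higher members. By gene, 4 of 10 higher members with a window (40.0%) had an E2F word in at least 1 window. So did 2 of 62 members under 2-fold (3.23%, Suz12 and Kmt5c), 1 of 5 lower members and 1 of 5 members not analysed (Cbx3). Over all genes of the table the share was 2.61%. Member windows are rich in CpG, with a median of 24 CG per window against 7 over all windows, and among all windows with at least 20 CG, a limit chosen after the values were seen, the share by gene was 5.46%. A CHR word was found in 4 of the 10 higher members, in 1 of 5 lower members and in 21.7% of all genes. In windows rich in CG it was found in 1 of 8 higher members and in 9.35% of all genes. CCAAT was found in 6 of 10 higher members, in 4 of 5 lower members and in 41.1% of all genes. These are matches of letters, and no binding was measured.

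Maintenance of DNA methylation held the member with the largest difference in signal. Uhrf1, the reader of hemimethylated CpG, had a signal of 98.6 at day 0 and 2641 at day 3, which is 26.8-fold higher. With the floor at the 75th percentile, above its day 0 signal, the log2 ratio was at least 2.64 in place of 4.74. Its other probe set went from 50.5, under the floor, to 290.5, a log2 ratio of at least 2.09. Dnmt1, the maintenance methyltransferase, went from 543 to 1986 (3.66-fold), and its other probe sets from 327 to 1501 and from 40.8 to 411. All 3 Dnmt1 probe sets and both Uhrf1 probe sets were thus at least 2-fold higher at day 3. Uhrf2, the paralog of Uhrf1, had signals of 695 and 900.3, a log2 ratio of 0.37. Other symbols match by name only, Uhrf1bp1 (960.4 and 747) and Uhrf1bp1l (1534 and 1522), and encode proteins named for binding UHRF1.

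Among the enzymes that set new methylation or remove it, Tet3 alone was past 2-fold on its brightest probe set under the floor used here. Dnmt3a, a de novo methyltransferase, had 246 and 284 on its brightest probe set (log2 ratio 0.21), and 3 of its 5 probe sets had log2 ratios between 0.16 and 0.21. The other pair of Dnmt3a probe sets gave 0.99 and at least 1.91, so its probe sets do not give 1 answer. Dnmt3b had 115 and 170.1 (0.56), with the other probe set at 0.57. Among the TET enzymes, which oxidise 5-methylcytosine, Tet2 had 527 and 551. Tet3 was above the floor at day 0 only (146 and 10.6), at least 2.14-fold lower, and its log2 ratio was at most -2.88 with the floor at the 25th percentile. Tet1 was at the floor (69.8 and 8.13).

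Among the chaperone and PRC2 genes, Chaf1b and Ezh2 were at least 2-fold higher at day 3. Chaf1b, the middle subunit of CAF-1, went from 99.2 to 378, 3.81-fold higher, while Chaf1a, its large subunit, had no probe set with 1 symbol and was not analysed here. Ezh2, the catalytic subunit of PRC2 that prevails in dividing cells, went from 314 to 1857, 5.91-fold higher on its 1 probe set. Ezh1, the alternative catalytic subunit, had 465 and 409, a log2 ratio of -0.18 that became positive with scaling to the hybridisation spikes. Of the core subunits, Eed and Suz12 lay between Ezh1 and Ezh2. Eed had 1219 and 2115 (log2 ratio 0.79), and Suz12 had 1117 and 1731 (0.63), with all 5 Suz12 probe sets between 0.55 and 0.99. Both were under 2-fold.

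The chromodomain readers held members past 2-fold in both directions. Cbx5, which encodes HP1 alpha, had 699.9 and 1456 (2.08-fold higher), and its other probe sets gave log2 ratios of 1.12 and 1.58. Cbx1, which encodes HP1 beta, had 928 and 906 on its brightest probe set, while its 3 other probe sets gave at least 0.23, 0.87 and 0.97. Among the Polycomb chromodomain genes, Cbx6 went from 173 to 407 (2.35-fold higher, with the other probe set at 1.25), Cbx8 from 144 to 232 (0.69) and Cbx2 from 327 to 408 (0.32). Cbx7 went the other way, from 311 to 78.0, which is 3.99-fold lower, the lowest log2 ratio of the members under the floor used here. With the floor at the 25th percentile that of Tet3 was lower. A single Cbx7 probe set was above the floor.

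Of 16 SET-domain methyltransferase genes outside PRC2 and the lysine 9 group, none was past 2-fold (median log2 ratio 0.06), and 13 were under 1.5-fold. Kmt5a, which places the first methyl group on lysine 20 of histone H4, came closest with 1099 and 2176 (1.98-fold higher) and 0.89 on the other probe set. Setd7, a lysine monomethyltransferase, had 349 and 576 (log2 ratio 0.72), while the other probe set, under the floor at day 3, gave -0.25 or lower. Kmt2d, a lysine 4 methyltransferase of enhancers, had 891 and 1106 (0.31). On the lower side, Kmt2c, a lysine 4 methyltransferase, had 1212 and 753 (-0.69), while its other probe sets gave -0.04, 0.58 and 0.93. Kmt2a, Kmt2b and Kmt2e had log2 ratios from -0.06 to 0.05. The median of these 16 genes was -0.11 after quantile normalisation and 0.35 after spike scaling. In the lysine 9 group, Suv39h2 went from 28.9, under the floor, to 140.1, at least 2.05-fold higher, with its dimmer probe sets, also under the floor at day 0, at least at 0.19 and 0.53. Setdb1 had 547 and 536, Setdb2 had 806 and 464 (-0.80), and Suv39h1 was not analysed here.

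The class I deacetylases, of which Hdac1, Hdac2 and Hdac3 encode catalytic subunits of nuclear corepressors, had a higher median than the class II and IV enzymes. Hdac1 went from 539.5 to 1365 (2.53-fold higher) and Hdac8 from 75.9 to 189 (2.49-fold), each on 1 probe set, and Hdac8 was near the floor at day 0. Hdac2 had 951 and 1391 (log2 ratio 0.55, and 0.74 on the other probe set), and Hdac3 had 1484 and 1455 (-0.03). The median of these 4 genes was 0.93. Of the 6 analysed class II and IV genes, 5 were under 1.5-fold, with Hdac4, Hdac6 and Hdac7 between -0.14 and 0.16. Hdac5 had 703 and 556 (-0.34), and Hdac10 had 300.3 and 254 (-0.24). Hdac11, the class IV enzyme, went from 1377 to 500.2 (2.75-fold lower) on its brightest probe set and from 332 to 277 (-0.26) on the other. The median of these 6 was -0.19, and 0.10 after spike scaling.

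Sirtuins, which remove acyl groups with NAD as cosubstrate, had a median log2 ratio of -0.68. Below 0 were 6 of 7, beside 5675 of all 12634 analysed genes, and at least 2-fold lower were 2 of 7, beside 5.62% of all genes. Of the class II and IV deacetylases 4 of 6 were below 0, and 6 of 6 after quantile normalisation or loess. The members past 2-fold, Sirt3 and Sirt4, are both mitochondrial. Each sirtuin but Sirt5 was read by 1 probe set. Sirt3, the main mitochondrial deacetylase, went from 4222 to 1709 (2.47-fold lower), and Sirt4 went from 246 to 71.4, near the floor (3.44-fold lower). Sirt5, a mitochondrial desuccinylase, had 804 and 572 (-0.49), with -0.95 on its other probe set. Sirt1, a nuclear deacetylase, had 370.3 and 231 (-0.68), Sirt2, which is mostly cytoplasmic, 1180.3 and 729 (-0.69), and the nucleolar Sirt7 2445 and 1591 (-0.62). Sirt6 alone was above 0, with 94.4 and 145 (0.61). Across the 3 other scalings the sirtuin median ranged from -0.80 to -0.39. Whole liver was measured, so fewer cells of a type and less RNA per cell cannot be told apart.

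**Figure D2:**
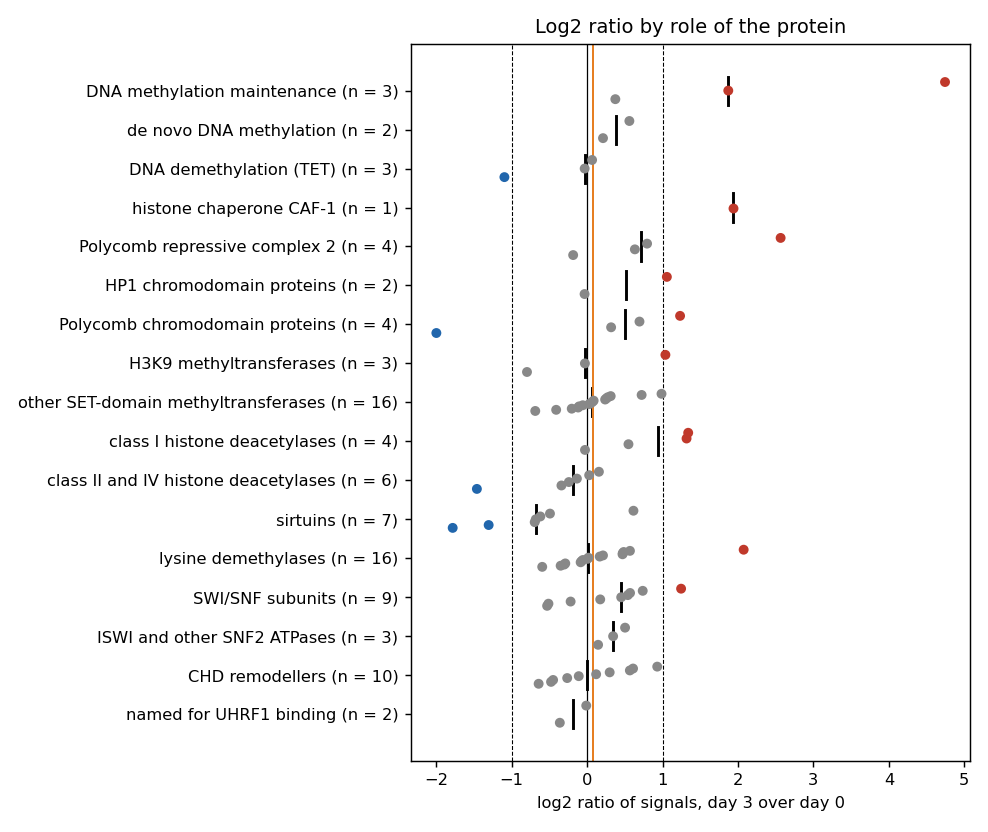
Log2 ratio of signals, day 3 over day 0, on the horizontal axis for each analysed member gene, grouped by the role of its protein; n is the number of genes. Black bars are medians, the orange line is the median of all genes (0.08), dashed lines mark 2-fold, red points are at least 2-fold higher and blue points at least 2-fold lower. The sirtuins lie mostly left of 0, and the SET-domain, demethylase and CHD genes gather around it.

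The analysed lysine demethylases were under 2-fold with 1 exception, Kdm8. Of 16 analysed genes, 14 were under 1.5-fold and the median log2 ratio was 0.01. Kdm8, a JmjC-domain protein, had 49.4, under the floor, and 288, at least 4.21-fold higher on its 1 probe set. Next came Kdm1a, the flavin-dependent lysine 4 demethylase, with 738 and 1094 (0.57), and a probe set at 0.01. Kdm2b had 738 and 1033 (0.48), Kdm6a had 317 and 440.2 (0.47), with -0.21 on the other probe set. Kdm5b had 367 and 508 (0.47), with 0.30 and -0.20 or lower on the others. Kdm5c was lowest with 412 and 273 (1.51-fold lower, -0.59), and 5 of its 6 analysed probe sets were below 0.

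Among the remodellers, SWI/SNF genes had a median log2 ratio of 0.45 and alternative subunits of a pair could have opposite signs. Smarca4, which encodes the ATPase BRG1, had 1519 and 2532 (0.74, and 0.32 on the other probe set), whereas Smarca2, which encodes the alternative ATPase BRM, had 2374 and 1664 (-0.51, and -0.56). Smarcc1 had 878 and 1302 (0.57), and its paralog Smarcc2 had 1393 and 965 (-0.53). Smarcd1 went from 50.3, under the floor, to 162, at least 2.37-fold higher. Its paralog Smarcd2 had 4069.7 and 3498 (-0.22, and 0.07 after spike scaling), with a probe set at 0.89, and Smarcd3 was at the floor (18.8 and 77.0). Only Smarcd1 passed 2-fold in this role. Smarcb1 and Smarce1, core subunits, had 592 and 860.0 (0.54) and 404 and 553 (0.45), and a dimmer Smarcb1 probe set was higher, from 172 to 553 (1.69).

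None of the 10 CHD genes and none of the 3 analysed ISWI-type and related ATPases was past 2-fold under the floor used here. Chd5, under that floor at day 3 (73.7 and 9.89), had a log2 ratio of -0.11 or lower. With the floor at the 25th percentile it was at most -1.90. Chd1l, a remodeller recruited by poly(ADP-ribose), had 1047 and 1993 (log2 ratio 0.93). Chd4, the ATPase of the NuRD complex, had 1535 and 2341 (0.61), with its other probe sets at 0.24 and at least 0.22. Chd1 had 166 and 246 (0.57), with its other probe sets at 0.10 and 0.18. Lower signals were seen for Chd6, with 198 and 127 (-0.64), and Chd2, with 916 and 658 (-0.48, and -0.50 on the other probe set). Smarca5, the ISWI ATPase SNF2H, had 1245 and 1764 (0.50), with probe sets at 0.46 and -0.20. Smarcal1 had 376 and 477 (0.34), with 0.93 on the other probe set, and Smarcad1 had 393 and 435 (0.15). The CHD median was 0.00 and its sign changed with the scaling.

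Of the genes just past and just short of 2-fold, Suv39h2 (log2 ratio at least 1.04), Cbx5 (1.06) and Tet3 (-1.10 or lower) were inside, and Kmt5a (0.99), Chd1l (0.93) and Setdb2 (-0.80) outside. Probe sets of the same gene give the 1 measure of error these arrays hold. The SD of the log2 ratio per probe set was 0.31 among the 46 members with a pair above the floor on both arrays and 0.44 over 4380 genes of any kind. It covers probe sets and not animals. Of 51 members with at least 2 analysed probe sets, 30 had all of them on the same side of 0, and none had probe sets at least 2-fold apart from equal signal in both directions. All 5 higher members with several probe sets had them all above 0, and so had 1 of 1 lower member below 0. The floor itself sets the sign of a probe set above it on 1 array only, so such probe sets had to fall on that side. This holds for all 3 Suv39h2 probe sets and for a dimmer probe set each of Uhrf1 and Dnmt1. Probe sets of this kind are also among those of the 51 members. Of the members under 2-fold, 2 had another probe set at least 2-fold higher (Dnmt3a and Smarcb1).

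**Figure D3:**
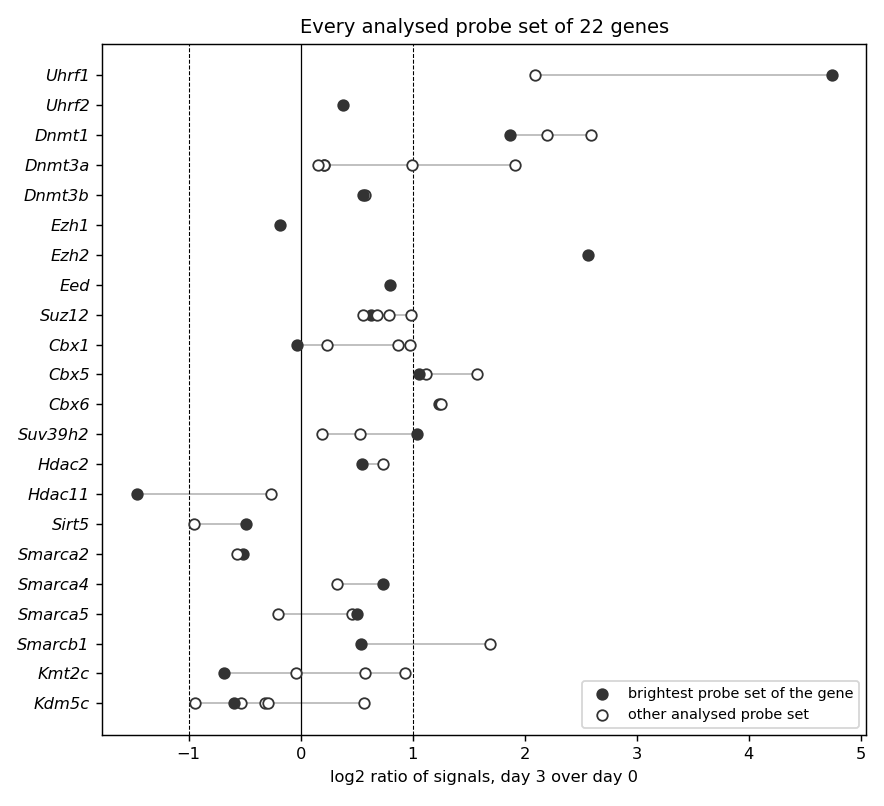
Log2 ratio of every analysed probe set of selected member genes; filled circles are the brightest probe set of a gene, open circles the others, and dashed lines mark 2-fold. The Dnmt1, Suz12 and Cbx5 probe sets lie together on the right, whereas those of Dnmt3a, Cbx1 and Kmt2c are spread.

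Genes of the same complexes that the symbol rule leaves out are given by lists, chosen with results of these data known. In the list of replication-coupled chromatin and methylation, 6 of 14 genes (42.9%) passed 2-fold upward, beside 12.9% of all genes, and 0 downward, beside 5.62%, with a median log2 ratio of 0.28. Asf1b, a histone chaperone, went from 144 to 1410.0 (9.78-fold), Hells, a remodeller needed for DNA methylation, from 119 to 867 (7.29-fold), and Mis18a, a centromere factor, from 163 to 1130.4 (6.94-fold). The others were Lig1 (5.71-fold), Cdca7, the partner of HELLS (4.88-fold), and Pcna, the sliding clamp (3.26-fold). Asf1a, the paralog of Asf1b, had 1330.0 and 1419 (0.09), and Usp7, the ubiquitin protease that acts on UHRF1 and DNMT1, had 2705 and 3076 (0.19). Of 18 Polycomb partners, 4 (22.2%) were at least 2-fold higher (median 0.11). The top 3 were Phf19 (at least 2.17-fold), Phc2 (2.17-fold) and Aebp2 (2.07-fold). Phf1 had 421 and 213 (-0.98), while Bmi1, Rnf2 and Ring1, the core of Polycomb repressive complex 1, had log2 ratios of 0.04, 0.11 and -0.03. Rbbp4, which stands in both of these lists, had 7201 and 5867 (-0.30), with its 3 probe sets from -1.47 to -0.30. Rbbp7 had 5846 and 8608 (0.56).

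Of 12 corepressor partners, 2 (16.7%) were at least 2-fold higher (median 0.12), Sap30 (2.71-fold) and Rcor1 (2.16-fold), a share near the 12.9% of all genes. None of 14 BAF and PBAF partners passed 2-fold, and 12 of them were above 0 (median 0.32), beside 6959 of all 12634 genes. Of 12 other histone methyltransferases, 1 (8.33%) was at least 2-fold higher (median 0.18), Prmt1, the main arginine methyltransferase (2.13-fold), and of 12 acetyltransferases 1 was higher (6 above and 6 below 0), Hat1, which acetylates newly made histone H4 (2.73-fold). Ep300 had 1464 and 787 (-0.90). None of 6 methyl-CpG readers and repair genes passed 2-fold (median 0.16). No gene of these lists was 2-fold lower on its brightest probe set. After the floor, other probe sets gave -2.20 for Kat2b, -1.47 for Rbbp4, -1.31 for Mbd2 and -1.10 for Nsd3. Among partners under 2-fold, other probe sets reached 2.69 for Nsd2, 1.31 for Mbd1 and 1.21 for Usp7. They reached 1.20 for Mtf2, 1.19 for Dot1l and 1.05 for Tbl1xr1.

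**Figure D4:**
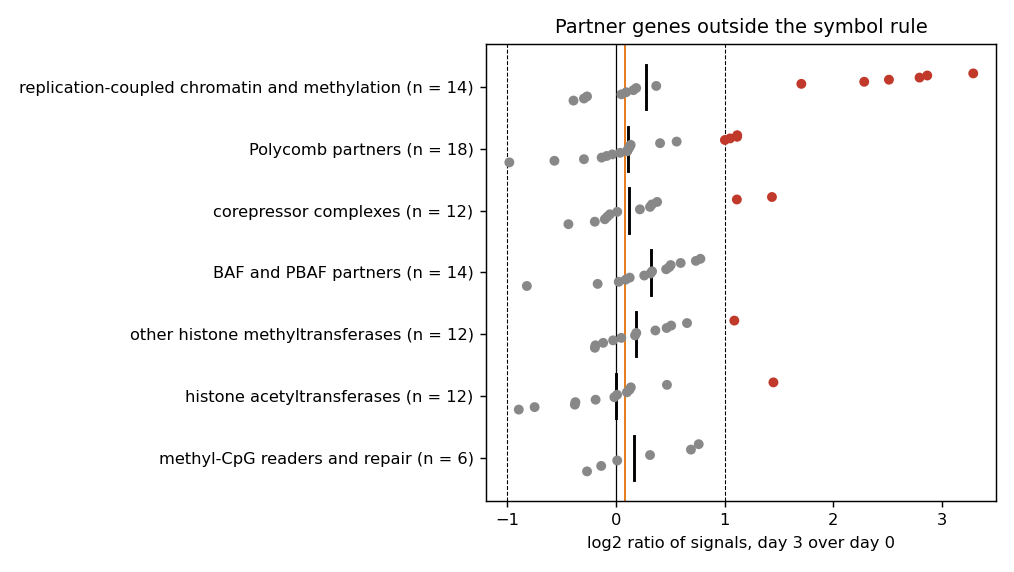
Log2 ratio of signals, day 3 over day 0, for genes of the same complexes outside the symbol rule; n is the number of analysed genes, black bars are medians, the orange line is the median of all genes (0.08), dashed lines mark 2-fold, and red points are at least 2-fold higher. The 6 red points of the replication-coupled list lie from 1.71 to 3.29.

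Values that moved with the results are set beside them here. The hepatocyte markers Alb, Ttr, Apoa1, Tat, Asgr1 and Cps1 were bright on both arrays, and had log2 ratios from -0.53 to 0.00. All 5 proliferation markers were at least 2-fold higher, from 3.26-fold for Pcna to 64.6-fold for Cdc20. Signals of the other cell types were summed as deposited, with no floor. For 6 Kupffer cell and macrophage markers the sums were 7129.5 and 16316 (3 of 6 at least 2-fold higher), and for 6 stellate cell and fibroblast markers 6339 and 10507 (3 of 6). For 6 endothelial markers they were 7008 and 5255 (0 of 6), with Kdr, Stab2 and Clec4g lower and the dimmer Pecam1, Lyve1 and Cdh5 higher, and a median log2 ratio of 0.00. For 4 cholangiocyte markers they were 275 and 1042 (3 of 4), and for 3 neutrophil markers 261 and 1193 (2 of 3), with Camp and Mpo under the floor. Of the lymphocyte markers, Cd79b had 101 and 69.2, Ms4a1 103 and 57.8, and Nkg7 94.4 and 39.3, and of these Ms4a1 and Nkg7 were under the floor at day 3, while Cd3e, Cd3g, Ncr1 and Cd79a were under it on both arrays. The erythroid marker Alas2 had 8932 and 2783 (3.21-fold lower). Spiked poly-A control RNAs had more 3′ relative to 5′ signal on the day 3 array in 8 of 8 pairs of probe sets, which read 4 RNAs in 2 designs each, by 1.32 to 2.90 times. Of the liver transcripts with such probe sets above the floor, the ratio at day 3 was 1.91 times that at day 0 for Gapdh, 2.09 times for beta-actin and 0.594 times for pyruvate carboxylase. The part of cell makeup and of 3′ to 5′ balance in the member ratios was not tested.

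**Figure D5:**
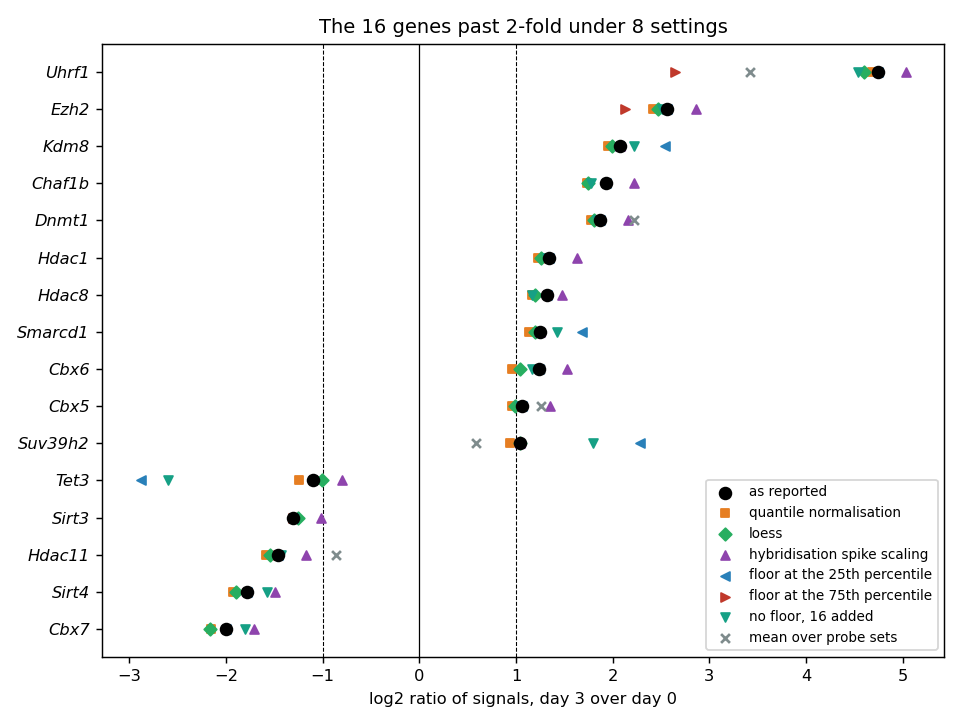
Log2 ratio of the member genes past 2-fold as reported (black circles) and under other scalings, floors and a mean over probe sets (coloured marks); dashed lines mark 2-fold. No gene changes side of 0, Uhrf1 ranges from 2.64 to 5.03, and Cbx5, Cbx6, Suv39h2, Hdac11 and Tet3 have marks inside 2-fold.

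The scaling between arrays set how many members, and how many of all genes, passed. With quantile normalisation 8 were higher and 5 lower, with loess 10 and 5, and with scaling to the hybridisation spikes 16 and 4. In that order, the higher were 8.42%, 10.6% and 17.2% of members, against 10.2%, 11.2% and 19.6% of all genes. The lower were 5.26%, 5.32% and 4.30% of members, against 7.30%, 6.31% and 3.10% of all genes. Spike scaling moved the median of all genes from 0.08 to 0.36 and that of the members from 0.07 to 0.36. Higher genes were 68.8% of the members past 2-fold as reported, 61.5% with quantile normalisation, 66.7% with loess and 80.0% with spike scaling. Of all genes past 2-fold they were 69.6%, 58.4%, 63.9% and 86.3%. Of the members under 2-fold, 30 changed sign under at least 1 of the 3 other scalings. Spike scaling moves genes above the floor upward alike, so a gene just below 0 has to change sign under it and a gene past 2-fold cannot. Genes just above 0 stay above it with the spikes. Kdm4b, at 0.01 as reported, had 0.30 with spike scaling, -0.25 with quantile normalisation and -0.18 with loess.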

How the data were processed

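Total RNA was labelled for an Affymetrix mouse array from 5 µg, per the labels' protocols. Each deposited value is the linear intensity of a probe set, from GCOS and MAS5 per the submitters' processing notes. Versions and scaling target: not given in the sources used here. Trimmed by 2% at each end, the mean was 500.0 on both arrays. MAS5 subtracts mismatch from perfect match signal, so low values are noisy. Detection calls were not used here.

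Probe sets were named by the array annotation, and the Entrez IDs of all 246 members matched RefSeq, with 0 symbols changed. Signals were used as deposited, floored at 68.3 (array medians 67.6 and 68.3) and put on the log2 scale; the brightest analysed probe set stood for its gene, and 2-fold was the threshold. Signals were not compared between genes. The members and lists were chosen with earlier results of these data known. Values on both arrays are given for the top 12 and bottom 12 members by ratio, for up to 3 members of each role farthest in the direction of its median, and for a set of core genes, with up to 3 partners of each list past 2-fold. Other partners, and the members in the last paragraph on probe sets, were chosen after their values were seen. Alternatives covered scaling, floor, probe sets and threshold. Steps were tested on simulated data. Python 3.11.15, pandas 2.3.3 and statsmodels 0.14.6 were used.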

Additional observations from a re-analysis of the deposited data

Results flagged for a closer look

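Probe sets that carry a member's symbol together with another were left out of the counts, and 4 of them were above the floor and brighter at day 3 than in the control liver. Those of Cbx3, which encodes HP1 gamma, are annotated with a Cbx3 pseudogene as well. They went from 6262 to 8721, from 4894 to 6918 and from 812 to 1154, which are log2 ratios of 0.48, 0.50 and 0.51. A probe set annotated with Kdm6b and 1700064E03Rik went from 202 to 230.0 (0.19). All 4 were under 2-fold, and which of the paired transcripts gave the signal was not tested.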

How the results depend on the processing

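No paired analysis was possible because each day had 1 array. As reported, 11 members were at least 2-fold higher and 5 lower (11.6% and 5.26%, against 12.9% and 5.62% of all genes). The number higher was 20 at 1.5-fold, 3 at 4-fold (Uhrf1, Ezh2 and Kdm8) and 5 under a floor set to the 75th percentile. The number lower was 12 at 1.5-fold, 0 at 4-fold and 8 under a floor set to the 25th percentile. It was 8 with no floor and 16 added to each signal, and 2 under the 75th percentile, which left 67 members. In that order these were 12.6%, 0%, 8%, 8% and 2.99% of members, against 14.2%, 0.76%, 11.2%, 9.73% and 5.28% of all genes. Raising the floor to the 75th percentile left 1 sirtuin lower in place of 2. Without probe sets whose name ends in _x_at, _s_at or _a_at, 1 methylation maintenance gene was higher in place of 2 and 1 sirtuin lower in place of 2, since every analysed Dnmt1 and Sirt3 probe set has such a name. The median log2 ratio of the members, 0.07 as reported, was -0.08 with quantile normalisation, -0.02 with loess and 0.36 with spike scaling, so its sign depends on the scaling. Of 809 values of single members under these settings, 785 moved by less than the SD between probe sets of a gene (0.44) and 24 by more. Many of them could not move by that much, so this count does not measure how firm the values are. The median log2 ratio of the hybridisation spikes was -0.29, so spike scaling shifts genes above the floor by less than this SD. For the 44 members with 1 analysed probe set, the mean over probe sets returns the same value. Low signal limits Suv39h2, Smarcd1, Kdm8 and Tet3, which were above the floor on 1 array.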

Other observations

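Some members gave different answers by probe set. One Dnmt3a probe set went from 30.5, under the floor, to 257, while 3 others of the gene had log2 ratios of 0.16, 0.21 and 0.21. For Smarcb1 the brighter probe set went from 592 to 860.0 and the dimmer from 172 to 553. Setd4 had -0.11 on its brightest probe set and 0.65 and at least 0.79 on the others, and Setd5 had 0.07 and -0.86. Which transcript each probe set reads was not analysed.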
